A study of Mus musculus with 2 samples.

Results

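Genes of meningeal fibroblasts were read in the cerebral cortex of newborn mice, as 32 named genes of which 31 had at least 1 probe set naming that gene alone on the array. The set holds 7 transcription factors, 4 transport or channel proteins, 18 secreted proteins and 3 intracellular proteins, out of 18193 genes named singly on the array. No probe set named Spp1 alone, so Spp1 has no signal here and enters only the promoter counts. They were selected on their link to the meninges and on the log2 differences between the pools, which were known, so the values below describe them and carry no test.

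The double knockout pool held cortical RNA of 3 mice that were Mrtfa null, carried floxed Mrtfb alleles and a GFAP-Cre transgene. The control pool held cortical RNA of 3 mice with the same Mrtfa null and floxed Mrtfb alleles and no Cre. By their labels both pools lacked Mrtfa and differed in Cre with deletion of Mrtfb, another coactivator of the transcription factor SRF. Cre was driven by the GFAP promoter, by the name of the transgene, and the cells in which it recombined are not stated in the labels. Mice of both pools are labelled as postnatal day 0, although the description of the double knockout sample gives day 1. Each pool was read on 1 Affymetrix array, so no replicate stands behind a difference, and how the 3 animals of a pool varied cannot be seen.

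The meninges are the membranes around the brain, and their fibroblasts lay down collagen-rich matrix, secrete retinoic acid and the chemokine CXCL12 toward the underlying cortex, and carry transporters that clear solutes from the cerebrospinal fluid. Forkhead factors such as Foxc1 are needed for these cells to form in the mouse. The innermost layer adheres to the cortical surface, and a cortical dissection can carry more or less of it. In tissue RNA of this kind, fewer cells of a type and less RNA per cell cannot be told apart.

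Signals on the 2 arrays ran from 0.1 to 15263.9 in the double knockout pool and to 15987.5 in the control pool. A signal of 178.6, the median over both arrays, served as a floor below which a probe set was not ranked. Mrtfb read 2481.8 in the double knockout pool, against 3358.9 in the control pool (-0.44 log2), averaging -0.33 ± 0.15 (SD, 2 probe sets). Mrtfa, labelled null in both, read 262.4 in the double knockout pool, against 601.6 in the control pool (-1.20 log2), so its signal was not alike in the 2 pools. No source used here says whether these probe sets read the deleted exons. Markers of cortical neurons reached the floor on both arrays in all 7 cases with a probe set, from Emx1 at 391.7 in the double knockout pool and 346.9 in the control pool upward, among them Tbr1 at 1720.3 in the double knockout pool and 1553.3 in the control pool.

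Most of the measured meningeal genes had a higher signal in the double knockout pool, by modest amounts. Of the 31 genes, 23 reached the floor on at least 1 array, 17 of them higher in the double knockout pool and 6 lower, with a median difference of 0.21 log2. Among all 11636 measured genes 52.9% were higher, and the median was 0.01. On both arrays the floor was reached by 21 of the 23, of which 15 were higher and 6 lower, beside 54.3% higher among all such genes. Slc6a13 and Slc22a6 reached it in the double knockout pool alone, and so could only be higher. The other 8 genes (Foxc2, Foxd1, Osr1, Twist1, Slc13a4, Efemp1, Mfap4 and Crabp2) stayed under the floor in both pools and have no direction.

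The differences were small for single genes. Tbx18 and Aldh1a2 were the 2 members at least 1.5-fold higher, beside 0.37% of all measured genes, and 0 members were at least 1.5-fold lower, beside 0.773%. At 1.3-fold, 8 members were higher and 0 lower, beside 2.1% and 3.67% of all measured genes. The member just inside 1.5-fold was Aldh1a2 at 1.60-fold, and just outside lay Slc6a13, at least 1.49-fold, and Islr at 1.45-fold. The spread between probe sets of the same gene, pooled over 4858 genes, was 0.181 log2 (SD), or 0.203 over the 1620 dimmest. That SD covers probe sets and not animals. For scale, the differences of all genes above the floor on both arrays had an SD of 0.187 log2. The median was 0.14 with the mean over a gene's probe sets in place of its brightest one, and the number of members at least 1.5-fold higher was 4 after quantile normalization (0.576% of all genes) and 0 with a pseudocount (0.172%).

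**Figure D1:**
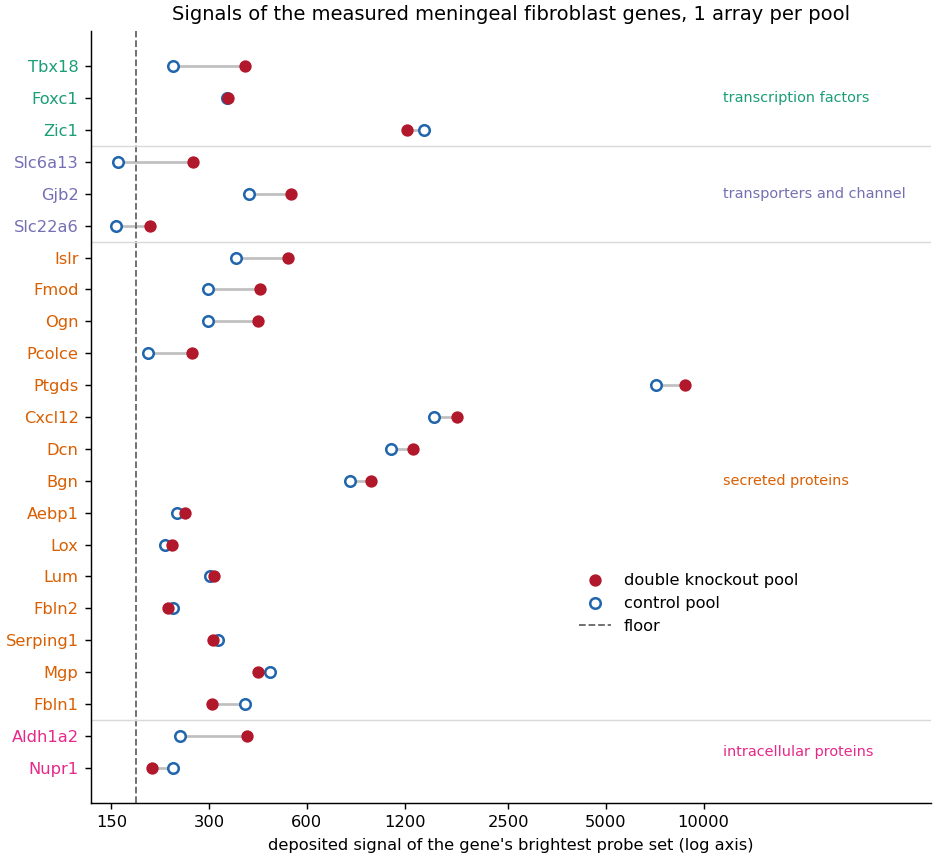
Deposited signal of the brightest probe set of each of the 23 measured members (log axis), filled points for the double knockout pool and open points for the control pool, 1 array each, with the floor of 178.6 as a dashed line. The filled point lies to the right of the open one for 17 members, and Slc6a13 and Slc22a6 have their open points left of the floor.

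Transcription factors did not differ in one direction. Tbx18, a T-box factor of mesenchymal and mural cells, read 387.4 in the double knockout pool, against 232.1 in the control pool, 1.66-fold higher (0.74 log2). A dimmer Tbx18 probe set stayed under the floor at 144.0 in the double knockout pool and 140.9 in the control pool, so the difference rests on 1 probe set. Foxc1, the forkhead factor of meningeal development, was nearly level, at 343.3 in the double knockout pool and 341.0 in the control pool (0.0060 log2). Its other probe set read 215.1 in the double knockout pool and was under the floor, at 175.9, in the control pool. Zic1, a zinc finger factor of the meninges that neural cells also express, read 1219.5 in the double knockout pool and 1372.7 in the control pool (-0.17 log2). The dimmer Zic1 probe set went the other way, at 572.0 in the double knockout pool and 529.6 in the control pool, averaging -0.03 ± 0.20 (SD, 2 probe sets). The forkhead factors Foxc2 and Foxd1 read 136.5 and 90.6 in the double knockout pool and 127.8 and 60.8 in the control pool, under the floor throughout. Osr1, an odd-skipped zinc finger factor, and Twist1, a basic helix-loop-helix factor of mesenchyme, were also under it, at 65.0 and 42.4 in the double knockout pool and 83.8 and 18.0 in the control pool. The 3 measured factors had a median of 0.0060 log2, with 1 of them past 1.5-fold.

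Transport and channel proteins were higher in the double knockout pool in each of the 3 measured cases. Slc6a13 and Slc22a6 reached the floor in that pool alone and so could only be higher, with folds that are bounds. Gjb2 alone was free to go either way. Slc6a13, the GABA and taurine transporter GAT2, read 267.0 in the double knockout pool and was under the floor, at 157.3, in the control pool, at least 1.49-fold higher. Slc22a6, the organic anion transporter OAT1, read 196.8 in the double knockout pool and 155.1, under the floor, in the control pool, at least 1.10-fold higher. These bounds depend on where the floor is set, and with a floor at the 25th percentile of signals the 2 differences were 0.76 and 0.34 log2. Gjb2, the gap junction protein connexin 26, was above the floor on both arrays, at 536.7 in the double knockout pool and 398.0 in the control pool, 1.35-fold higher (0.43 log2). Slc13a4, a sodium-sulphate cotransporter, read 169.4 in the double knockout pool and 172.6 in the control pool, both under the floor. With the floor at the 25th percentile all 4 were measured, Slc13a4 on the lower side, and the median was 0.38 log2.

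Among the secreted members, the small leucine-rich proteoglycans, which bind collagen and shape its fibrils, were all on the higher side in the double knockout pool on their brightest probe sets. Fmod, fibromodulin, read 430.6 in the double knockout pool, against 297.5 in the control pool, 1.44-fold higher (0.53 log2). Over the 3 Fmod probe sets above the floor on both arrays the mean was 0.41 ± 0.30 (SD), and a dimmer one reached the floor in the control pool alone. Ogn, osteoglycin, read 425.1 in the double knockout pool and 297.9 in the control pool (0.51 log2). Its other probe set was nearly level, at 216.2 in the double knockout pool and 210.5 in the control pool, which brings the mean to 0.27 ± 0.34 (SD, 2 probe sets). The differences of the proteoglycans thus varied among probe sets of the same gene. Bgn, biglycan, read 948.1 in the double knockout pool and 816.5 in the control pool (0.21 log2), averaging 0.33 ± 0.16 (SD, 2 probe sets). Dcn, decorin, read 1274.8 in the double knockout pool and 1086.6 in the control pool (0.23 log2). Lum, lumican, the chromosomal neighbour of Dcn, was close to level at 311.3 in the double knockout pool and 301.0 in the control pool (0.04 log2). Islr, a secreted protein with leucine-rich repeats and an immunoglobulin domain, read 524.8 in the double knockout pool and 362.1 in the control pool, 1.45-fold higher (0.53 log2).

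Signalling proteins, enzymes and carriers among the secreted members were higher for 2 bright genes. Ptgds, which makes prostaglandin D2 and carries lipophilic molecules in cerebrospinal fluid, had a high signal throughout, at 8776.4 in the double knockout pool and 7117.9 in the control pool (0.30 log2). Its other probe set read 6049.9 in the double knockout pool and 4025.1 in the control pool, so that both averaged 0.44 ± 0.20 (SD, 2 probe sets). Oligodendrocytes also express Ptgds, and their markers were lower in the double knockout pool (median -0.32 log2 over 9 genes). The cells from which the Ptgds signal came cannot be told apart. Cxcl12, the meningeal chemokine that guides Cajal-Retzius cells and interneurons, read 1745.2 in the double knockout pool and 1473.8 in the control pool (0.24 log2). A dimmer Cxcl12 probe set differed by -0.05, for a mean of 0.10 ± 0.20 (SD, 2 probe sets). Serping1, the complement C1 inhibitor, read 307.4 in the double knockout pool and 319.2 in the control pool (-0.06 log2).

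Collagen-processing and elastic fibre proteins were mixed. Pcolce, which enhances the cleavage of procollagen, read 266.4 in the double knockout pool and 194.2 in the control pool, 1.37-fold higher (0.45 log2). Its other probe set read 283.8 in the double knockout pool and was under the floor, at 169.9, in the control pool, at least 1.58-fold higher. Both Pcolce probe sets therefore pointed the same way. Lox, lysyl oxidase, which cross-links collagen and elastin, read 230.4 in the double knockout pool and 219.7 in the control pool (0.06 log2). Aebp1, a collagen-binding matrix protein, read 253.7 in the double knockout pool and 239.3 in the control pool (0.08 log2). These 2 genes were within the spread between probe sets, as were the next 2. Mgp, the matrix Gla protein that inhibits calcification, read 424.9 in the double knockout pool and 461.5 in the control pool (-0.12 log2). Fbln2, fibulin 2, read 223.9 in the double knockout pool and 231.8 in the control pool (-0.05 log2), a sign that turned after quantile normalization (0.035) and loess centring (0.0086). The probe sets of Fbln1, fibulin 1, disagreed, with 305.5 in the double knockout pool and 386.9 in the control pool on one (-0.34 log2), and 367.4 in the double knockout pool and 293.6 in the control pool on the other (0.32 log2). Their mean was -0.01 ± 0.47 (SD, 2 probe sets), so Fbln1 had no settled direction. Efemp1, fibulin 3, and Mfap4, a microfibril protein, were under the floor in both pools. Over the 15 measured secreted members, 11 of them higher and 4 lower, the median was 0.21 log2, or 0.10 with the mean over probe sets.

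The 2 measured intracellular members went opposite ways. Aldh1a2, the retinaldehyde dehydrogenase with which the meninges make retinoic acid, read 392.0 in the double knockout pool and 244.5 in the control pool, 1.60-fold higher (0.68 log2) on its only probe set. Nupr1, a small stress-induced nuclear protein, read 200.7 in the double knockout pool and 231.8 in the control pool (-0.21 log2). Its other probe set was under the floor in both pools, at 173.2 in the double knockout pool and 102.6 in the control pool. Crabp2, which carries retinoic acid in the cytoplasm, read 81.1 in the double knockout pool and 83.0 in the control pool, under the floor.

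Counting probe sets in place of genes gave a similar picture. The members had 56 probe sets, of which 29 reached the floor on both arrays, 22 of these higher in the double knockout pool and 7 lower, beside 50.9% higher among all such named probe sets. A further 5 reached the floor in the double knockout pool alone and 1 in the control pool alone. Among 7 members with at least 2 such probe sets, 4 had each of these higher (Ogn, Fmod, Bgn and Ptgds) and 3 were split (Zic1, Cxcl12 and Fbln1). Another 14 members rested on 1 probe set above the floor on both arrays.

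**Figure D2:**
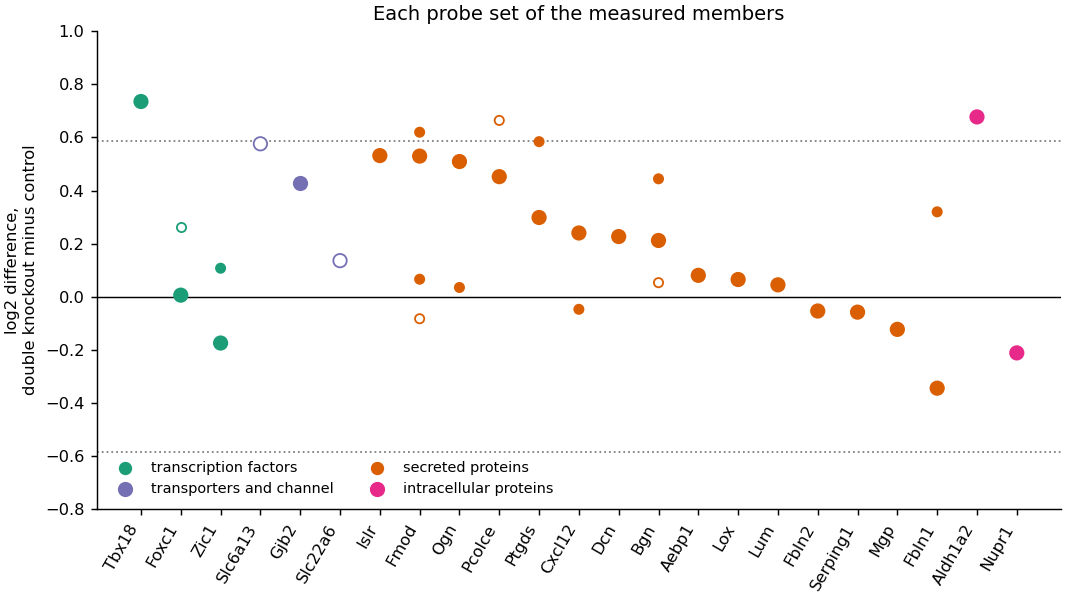
Log2 difference, double knockout minus control, of each probe set of the measured members, coloured by role, with the larger point for the brightest probe set of a gene and open points for bounds from probe sets above the floor on 1 array. Dotted lines mark 1.5-fold. Tbx18 and Aldh1a2 lie above the upper line with their brightest probe sets, and Zic1, Cxcl12 and Fbln1 have filled points on both sides of 0.

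Many of the members were dim. The geometric mean signal over both arrays was under 500 for 18 of the 23, of which 13 were higher in the double knockout pool and 8 at least 1.3-fold higher. Among all 4138 measured genes that dim, 41.4% were higher and 3.55% were at least 1.3-fold higher. The brighter members were Ptgds, Cxcl12, Dcn, Bgn and Zic1, and of these Zic1 alone was lower on its brightest probe set.

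**Figure D3:**
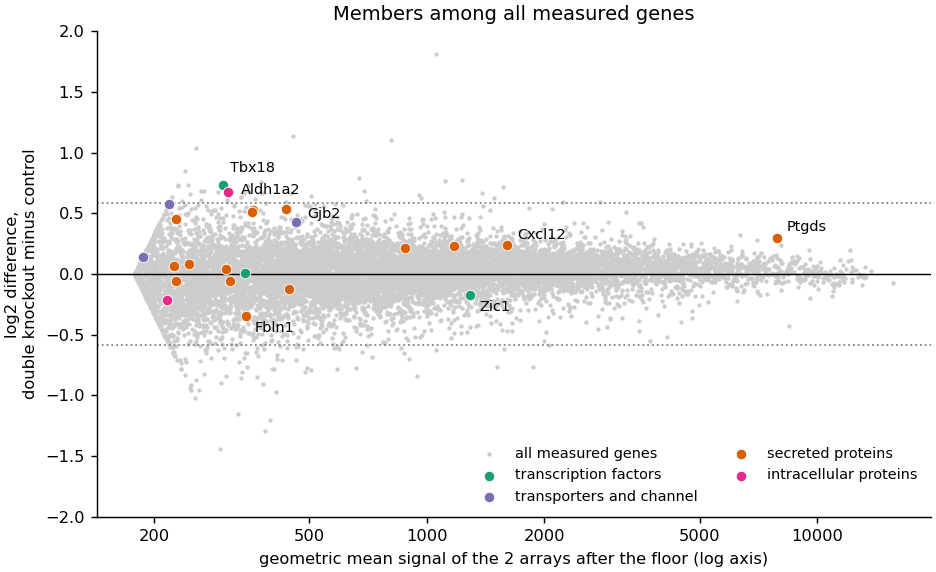
Log2 difference, double knockout minus control, against the geometric mean signal of the 2 arrays (log axis) for all 11636 measured genes in grey and the 23 measured members coloured by role. Dotted lines mark 1.5-fold. Of the members 17 lie above 0 and most sit at the dim end, where the grey cloud is widest.

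The 5 members with a promoter sequence that had the largest differences above the floor on both arrays are shown next, to let their start regions be compared. Each is the RefSeq sequence of assembly GRCm38.p6 from 250 bases before the start of the gene to 50 after, on the gene's strand, and capitals mark every motif found among those named below.
Tbx18, chr9:87731211-87731510, minus strand: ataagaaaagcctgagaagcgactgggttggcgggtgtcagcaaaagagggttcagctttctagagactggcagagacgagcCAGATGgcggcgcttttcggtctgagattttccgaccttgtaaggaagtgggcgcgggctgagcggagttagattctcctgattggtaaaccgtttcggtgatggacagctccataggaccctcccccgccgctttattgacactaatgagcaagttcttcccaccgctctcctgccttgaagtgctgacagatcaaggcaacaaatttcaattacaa
Aldh1a2, chr9:71215539-71215838, plus strand: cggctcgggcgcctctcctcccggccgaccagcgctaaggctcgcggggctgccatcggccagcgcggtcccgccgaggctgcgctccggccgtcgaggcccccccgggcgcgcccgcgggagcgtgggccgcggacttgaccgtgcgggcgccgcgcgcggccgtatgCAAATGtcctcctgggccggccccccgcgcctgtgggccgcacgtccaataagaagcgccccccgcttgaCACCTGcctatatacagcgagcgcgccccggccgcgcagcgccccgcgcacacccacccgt
Islr, chr9:58158505-58158804, minus strand: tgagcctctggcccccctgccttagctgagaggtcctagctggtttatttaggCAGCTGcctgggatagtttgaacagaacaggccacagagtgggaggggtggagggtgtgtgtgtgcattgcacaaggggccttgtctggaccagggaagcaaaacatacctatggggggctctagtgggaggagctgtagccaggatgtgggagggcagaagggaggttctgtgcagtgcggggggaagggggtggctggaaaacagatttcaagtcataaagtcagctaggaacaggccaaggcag
Fmod, chr1:134037004-134037303, plus strand: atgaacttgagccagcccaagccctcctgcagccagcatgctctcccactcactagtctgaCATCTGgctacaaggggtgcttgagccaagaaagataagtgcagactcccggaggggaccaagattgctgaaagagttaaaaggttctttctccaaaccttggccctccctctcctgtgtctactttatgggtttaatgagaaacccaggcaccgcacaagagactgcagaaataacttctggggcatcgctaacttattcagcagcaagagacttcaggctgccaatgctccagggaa
Ogn, chr13:49607765-49608064, plus strand: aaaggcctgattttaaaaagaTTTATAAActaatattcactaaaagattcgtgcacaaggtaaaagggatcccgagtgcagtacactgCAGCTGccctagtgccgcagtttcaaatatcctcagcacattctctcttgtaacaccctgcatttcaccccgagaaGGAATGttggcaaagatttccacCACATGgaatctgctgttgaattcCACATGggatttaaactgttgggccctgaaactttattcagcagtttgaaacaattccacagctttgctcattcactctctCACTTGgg
These start regions were unlike in composition. That of Aldh1a2 was 78% G and C with 50 CpG dinucleotides, that of Tbx18 51.7% with 15, and those of Islr, Fmod and Ogn held 1, 3 and 4. The median over the 27 promoters of the 23 members with one was 57.7%, and over all promoters 52.7%.

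Motifs were searched on both strands of all 32851 promoters. The CArG box, to which SRF binds, was found in 0 of the 27 member promoters and in 1.63% of all. The forkhead motif GTAAACA was in 0 of 27 and in 3.65% of all. GGAATG, bound by TEAD factors, was in 5 of 27 (Ogn, Slc13a4, Slc22a6, Slc6a13 and Zic1) and in 14.7% of all. AGGTCA, the half-site of nuclear receptors, was in 2 of 27 (Gjb2 and Slc6a13) and in 16.3% of all. The GC box GGGCGG was in 15 of 27 and in 35.7% of all, and the E-box CANNTG, to which factors such as Twist1 bind, in 22 of 27 and in 72.3% of all. TATAAA was in 3 of 27 (Ogn, Spp1 and Twist1) and in 13.6% of all, and in Ogn it matched on both strands with an overlap. In the sequences above the capitals are E-boxes, apart from TATAAA and GGAATG in Ogn. A match describes these letters only, and a window without one says nothing of the factor.

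Other genes of the meninges, which are no members, were also mostly higher in the double knockout pool. Of 48 such genes 31 were measured, 22 higher and 9 lower, beside 52.9% higher among all measured genes. Wnt6 and Zic4 reached the floor in the control pool alone, and so could only be lower. The median was 0.14 log2. At 1.5-fold 1 gene was higher and 1 lower, beside 0.37% and 0.773% of all measured genes. The list was drawn up with results of these data known and is not independent support. Igf2, the insulin-like growth factor of meninges and choroid plexus, read 3414.0 in the double knockout pool and 2263.3 in the control pool (0.59 log2). Bmp6, a bone morphogenetic protein, and Cyp1b1, a cytochrome P450, differed by 0.54 and 0.50. Thbs2, a matrix thrombospondin, was lower, at 182.3 in the double knockout pool and 275.2 in the control pool (-0.60 log2). The fibrillar collagen genes Col1a1, Col1a2 and Col3a1, chosen after their values were seen, differed by 0.11, 0.17 and 0.23. Over 2 probe sets each, they averaged 0.05 ± 0.09, 0.33 ± 0.23 and 0.10 ± 0.18 (SD). Slc22a8, the transporter OAT3 and chromosomal neighbour of Slc22a6, also chosen after its values were seen, differed by 0.36. It averaged 0.26 ± 0.14 (SD, 2 probe sets).

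The rest of the retinoic acid pathway did not go with Aldh1a2. Of 18 genes 12 were measured, 3 higher and 9 lower in the double knockout pool, beside 52.9% higher among all measured genes. Dhrs3 reached the floor in the control pool alone and so could only be lower. The median was -0.15 log2, or -0.14 over the 11 above the floor on both arrays. At 1.5-fold 0 were higher and 0 lower, beside 0.37% and 0.773% of all measured genes. Cyp26b1, which degrades retinoic acid, read 490.0 in the double knockout pool and 594.5 in the control pool (-0.28 log2). Rarb, a retinoic acid receptor whose own gene retinoic acid induces, read 707.9 in the double knockout pool and 852.5 in the control pool (-0.27 log2). Rdh11, a retinol dehydrogenase, differed by -0.30 and the retinoid X receptor Rxrg by -0.22. The genes for the other synthesising enzymes were level or lower, with Aldh1a1 at -0.09 and Rdh10 at -0.15, both chosen after their values were seen, while Aldh1a3 was under the floor.

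Partners of the secreted members were likewise not higher as groups. The CXCL12 receptors Cxcr4 and Ackr3 differed by -0.03 and -0.19. Of 9 further small leucine-rich proteoglycans 2 were measured, Podn at -0.15 and Prelp, a neighbour of Fmod chosen after its values were seen, under the floor in the double knockout pool alone. Prelp could therefore only be lower. Elastic fibre and lysyl oxidase genes had 2 of 6 measured genes higher and 4 lower, beside 52.9% higher among all measured genes. Their median was -0.07. Eln, elastin, differed by -0.31, the lysyl oxidase relative Loxl1 by -0.13, Fbln5 by 0.19 and Mfap2 by 0.17.

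**Figure D4:**
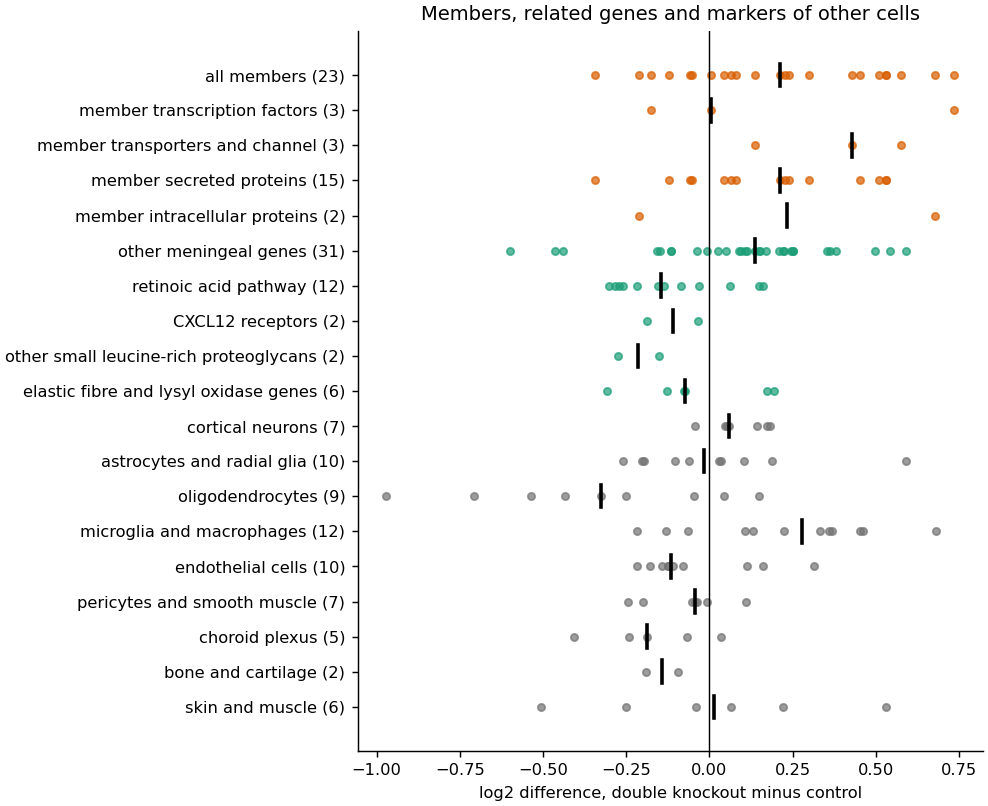
Log2 difference, double knockout minus control, of every measured gene of the member groups (orange), of related genes that are no members (green) and of markers of other cells (grey), with black bars at the medians and the number of measured genes in brackets. The bars of the members, the other meningeal genes and the microglia and macrophage markers lie at 0.21, 0.14 and 0.28, and that of the oligodendrocyte markers at -0.32.

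Markers of some other cells differed between the same pools. Microglia and macrophage markers were higher in the double knockout pool in 9 of 12 measured cases of 15, beside 52.9% of all measured genes. Lyve1 reached the floor in the double knockout pool alone and so could only be higher. Their median was 0.28 log2, or 0.22 over the 11 above the floor on both arrays. The summed signal was 7946.6 in the double knockout pool and 6796.5 in the control pool. Among these markers the border macrophage receptor Mrc1 read 445.2 in the double knockout pool and 277.3 in the control pool (0.68 log2). The complement genes C1qc and C1qb differed by 0.46 and 0.37, with C1qb averaging 0.21 ± 0.14 (SD, 3 probe sets). Lyz2 differed by 0.36. The 3 lower markers were F13a1, Cx3cr1 and Aif1, at -0.22, -0.13 and -0.06, chosen after their values were seen. Cd163, Ms4a7 and Trem2 were under the floor. For the members the summed signal was 19991.9 in the double knockout pool and 16938.4 in the control pool, and without Ptgds 11215.5 in the double knockout pool and 9820.5 in the control pool. The part of macrophages, or of the amount of membrane left on the cortex, in the members' differences was not tested.

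By their medians, vascular and choroid plexus markers were not higher with them, while 52.9% of all measured genes were higher. Of 10 endothelial markers 3 were higher and 7 lower (median -0.12 log2, summed signal 7561.4 in the double knockout pool and 7806.1 in the control pool). The largest differences were those of Tek at 0.31, Pecam1 at -0.22, Eng at -0.18 and Cdh5 at 0.16. Pericyte and smooth muscle markers, a cell class that also expresses Tbx18, were higher in 1 of 7 measured cases and lower in 6 (median -0.04). The summed signal was 7120.3 in the double knockout pool and 7049.8 in the control pool, with Myh11, Higd1b and Anpep under the floor. Acta2 differed by -0.24, Cspg4 by -0.20, Rgs5 by 0.11 and Notch3 by -0.05. Over probe sets, Cspg4 averaged 0.01 ± 0.29 (SD, 2 probe sets), Rgs5 -0.01 ± 0.12 (4) and Notch3 -0.39 ± 0.48 (2). Choroid plexus markers, which bear on Slc22a6 and Ptgds, were higher in 1 of 5 measured cases and lower in 4. Cldn2 reached the floor in the control pool alone and so could only be lower. The median was -0.19, or -0.15 over the 4 above the floor on both arrays. The summed signal was 13606.6 in the double knockout pool and 13477.0 in the control pool, with Otx2, Kl and Aqp1 under the floor. Ttr, the transthyretin of the choroid plexus, differed by 0.03, Kcnj13 by -0.41, Clic6 by -0.24 and Folr1 by -0.07.

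Markers of bone, cartilage and blood were mostly under the floor, and those of skin, muscle and the cortex itself were not. Of the 12 bone and cartilage markers with a probe set 10 were under it in both pools, among them Ibsp, Sp7 and Col2a1. The other 2, Alpl and Col9a1, were lower in the double knockout pool (summed signal 511.7 in the double knockout pool and 599.9 in the control pool). Alpl reached the floor in the control pool alone and so could only be lower. Col9a1 differed by -0.10 log2, averaging -0.07 ± 0.04 (SD, 2 probe sets). All 6 blood cell markers with a probe set were under it. Of 12 skin and muscle markers 6 were measured, 3 higher and 3 lower, with a median of 0.01. Des reached the floor in the double knockout pool alone and so could only be higher. The summed signal of the 6 was 2702.5 in the double knockout pool and 2487.1 in the control pool. Lor, a protein of the cornified skin layer, read 846.4 in the double knockout pool and 723.9 in the control pool. It averaged 0.05 ± 0.24 (SD, 2 probe sets). Krt10 read 561.0 in the double knockout pool and 535.2 in the control pool. Ckm and Acta1 were lower, at -0.51 and -0.25 log2. Krt5, Krt14, Myh3, Mylpf, Tnnt3 and Myog were under the floor in both pools. Cortical neuron markers had a median of 0.06 (6 of 7 higher, summed signal 18093.3 in the double knockout pool and 17085.8 in the control pool). Bcl11b differed by 0.18, Emx1 by 0.17, Tbr1 by 0.14 and Neurod2 by 0.06. Over probe sets, Bcl11b averaged -0.06 ± 0.26 (SD, 4 probe sets) and Neurod2 -0.03 ± 0.12 (2). Astrocyte and radial glia markers had a median of -0.02, with 5 of 10 higher and a summed signal of 37684.9 in the double knockout pool and 38467.8 in the control pool. Among them Gfap, the astrocyte filament gene whose promoter names the Cre transgene, read 2753.0 in the double knockout pool and 1822.5 in the control pool (0.59 log2). Gfap averaged 0.58 ± 0.01 (SD, 2 probe sets), and its part in the members' differences was not tested. Hes5, Sox9 and Slc1a2 were lower, at -0.26, -0.20 and -0.20 log2. Over 2 probe sets each, Sox9 averaged -0.08 ± 0.17 and Slc1a2 -0.09 ± 0.15 (SD). Oligodendrocyte markers were higher in 2 of 9 measured cases, beside 52.9% of all measured genes. These were Olig1 and Pdgfra, chosen after their values were seen, the second also standing among the other meningeal genes. The 2 Pdgfra probe sets averaged -0.02 ± 0.24 (SD). Mobp, Mag, Ugt8a and Mbp were lower, at -0.97, -0.71, -0.54 and -0.43. At 1.5-fold 0 markers were higher and 2 lower, beside 0.37% and 0.773% of all measured genes. The summed signal of the oligodendrocyte markers was 19672.5 in the double knockout pool and 23146.3 in the control pool.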

How the data were processed

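Cortical RNA was hybridised to 2 Affymetrix arrays, 1 per pool of 3 mice, after labelling of 6 ug of RNA with biotin, per the labels' protocols. The deposited values are linear probe set intensity signals that the authors computed with MAS5, per the submitters' processing notes, with the version and scaling target not given in the sources used here. The 2% trimmed mean was 500.0 on both arrays. Detection calls were not used here. Probe sets were named from the platform annotation, with Entrez identifiers matched to RefSeq genes of GRCm38.p6 (99.4% matched, 0 symbols changed). Of 45101 probe sets, 64 control probe sets were left out, 34945 named 1 gene, and 932 with several genes and 9160 with none entered no gene value.

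Differences are log2 double knockout minus control. Signals were centred by 0.0037 log2, the median over probe sets bright on both arrays, and signals under the floor (50th percentile, 178.6) were set to it. A gene's value came from its brightest probe set reaching the floor on at least 1 array. Printed signals are as deposited. A fold against a pool under the floor is a lower bound. With 1 array per group no test was made, and the number of arrays limits the precision. The members and lists were chosen with earlier results of these data known. Named genes are all members, up to 4 genes of each other list with the largest difference on both arrays, and Mrtfa, Mrtfb and Srf. Further genes are named as reaching the floor on 1 array or none, or as chosen after their values were seen. Srf differed by -0.31 log2. The calculation was tested on simulated data. Python 3.11.15, numpy 2.4.6, pandas 2.3.3, statsmodels 0.14.6 and matplotlib 3.10.9 were used. Alternatives were no centring, quantile normalization, loess centring (span 0.3), floors at the 25th and 75th percentiles, a pseudocount equal to the floor, the mean over probe sets, leaving out probe sets suffixed for possible cross-hybridisation, and genes above the floor on both arrays only.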

Additional observations from a re-analysis of the deposited data

How the results depend on the processing

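The members' median stayed above 0 under all 10 alternatives, at 0.14 to 0.23 log2 against 0.21, the lowest being 0.14 with the mean over probe sets. With that mean the transcription factors had a median of 0.14 and the secreted members 0.10. Leaving out Ptgds, an alternative chosen after seeing the data, gave 0.17 for the members and 0.15 for the secreted ones. A floor at the 75th percentile left 5 members measured, 4 of them higher and 0 at least 1.5-fold higher (60.2% and 0.158% of all genes), the transcription factor median (Zic1 alone) was -0.17, and the choroid plexus median, then of 1 gene, was 0.035. A floor at the 25th percentile gave the intracellular members a median of -0.037, and leaving out suffixed probe sets gave 0.68, from Aldh1a2 alone. The number of members at least 1.5-fold higher was 4 after quantile normalization (0.576% of all genes) and 0 with the pseudocount (0.172%), which also gave 0.31 for the transport and channel proteins and makes dim differences smaller by construction. Over 9 alternatives the median of the other meningeal genes ran from 0.10 to 0.19 log2, against 0.14. That of the microglia and macrophage markers ran from 0.20 to 0.33, against 0.28. No paired analysis was possible because each group has 1 array. Signals near the floor limit what can be read for most members, since 18 of 23 were under 500.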

Other observations

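The chromosomal neighbours of the members, taken as the nearest protein-coding gene on either side in RefSeq (assembly GRCm38.p6), were 62 genes that are no members, of which 32 were measured. Of these 16 were higher and 16 lower in the double knockout pool, beside 52.9% higher among all measured genes, with a median of 0.00085 log2. At 1.5-fold 0 were higher and 1 lower (0.37% and 0.773% of all genes). The members lie on 17 chromosomes. Among the neighbours, chosen after their values were seen, Srfbp1, beside Lox, differed by -0.72 log2, Gjb6, the connexin 30 gene beside Gjb2, was higher by 0.35 log2, and Zic4, beside Zic1, was under the floor in the double knockout pool alone. Polr2m, beside Aldh1a2, differed by 0.0063.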
